A study of Mus musculus with 2 samples.

Results

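The dorsolateral prostate of mice aged 6 months (strain FVB/N) was examined for its collagen genes. Members were the genes with a symbol made of Col, a number, a and a number, such as Col1a1, that at least 1 non-control probe of the array reached through its RefSeq accession. Of 44 such symbols in the RefSeq table used, 43 had a probe (74 probes in all) and Col12a1 had none, against 18952 genes with a probe on the whole array. A gene took the value of its brightest detected probe over both arrays. Detected means well above background, as the scanner software flags it, in the same pool on both arrays. By this rule 26 of the 43 collagen genes were detected, among 10435 detected genes in all.

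RNA of 6 wild-type mice was pooled, and RNA of 6 ARR2PB-miR32 transgenic mice was pooled, both of strain FVB/N. ARR2PB is a composite probasin promoter, active in prostate epithelium and responsive to androgen, so the transgene is directed to epithelial cells and not to the stroma. Both pools met on each of 2 arrays, printed on 1 slide: on array 1 Cy3 marked the transgenic RNA, and on array 2 Cy5 did. The question is how expression in this tissue differs with the miR-32 transgene. Since array 2 is a dye-swapped repeat of array 1, there is 1 replicate per genotype and no test can be made, and each ± is the SD over the 2 arrays. The spread between animals is not known. Mature miR-32 was not measured here, and its sequence is shown because it is the agent that separates the pools, with the seed (bases 2 to 8) in capitals, as in RefSeq (GRCm38.p6, chr4:56895272-56895293, minus strand).
mmu-miR-32-5p: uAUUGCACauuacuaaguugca

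Collagens are triple-helical proteins of the extracellular matrix. Fibrillar collagens form the banded fibres that give tissue its tensile strength, type IV collagens build the sheet-like network of basement membranes beneath epithelia and around vessels and muscle cells, and other types coat fibres, anchor epithelia or span membranes. In the prostate, fibroblasts and smooth muscle cells of the stroma make most fibrillar collagen, while basement membrane collagens come from both sides of the membrane. Some members, such as Col17a1 of the hemidesmosome and Col7a1 of anchoring fibrils, are best known from epithelia. These pooled tissue RNAs do not show which cells a collagen message came from, and fewer cells of a type and less RNA per cell cannot be told apart.

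No collagen gene differed between the pools by at least 1.5-fold (0.585 in log2) in the same direction on each array. None of 26 was higher and none was lower by this size rule, where 0.910% of all detected genes were higher and 1.30% were lower, together 2.21%. With so small a share on the whole array, the absence of calls among 26 genes does not set the collagens apart. The median log2 ratio of transgenic over wild type was −0.08 for the 26 genes and −0.06 for all detected genes. By class it was −0.15 for 7 fibrillar, −0.08 for 5 basement membrane and −0.02 for 14 other collagens. The fibrillar median turned to 0.03 when each gene took its brightest probe before the detection filter, and the basement membrane median was −0.17 on array 2 and 0.02 on array 1. Nearest to the rule were Col4a1, lower on both arrays (−0.83 and −0.56), and Col20a1, higher on both (0.63 and 0.51).

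The arrays agreed in sign for 17 of the 26 genes. Of these, 10 were below 0 on both arrays, where 28.0% of all detected genes were, and 7 were above 0 on both, where 17.5% were. Another 5 were above 0 on array 1 and below 0 on array 2, a pattern in which the Cy3 signal is the brighter one on each array and which 29.7% of all detected genes showed. The remaining 4 had the reverse pattern, with Cy5 brighter on each array, as 24.9% of all detected genes did.

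**Figure D1:**
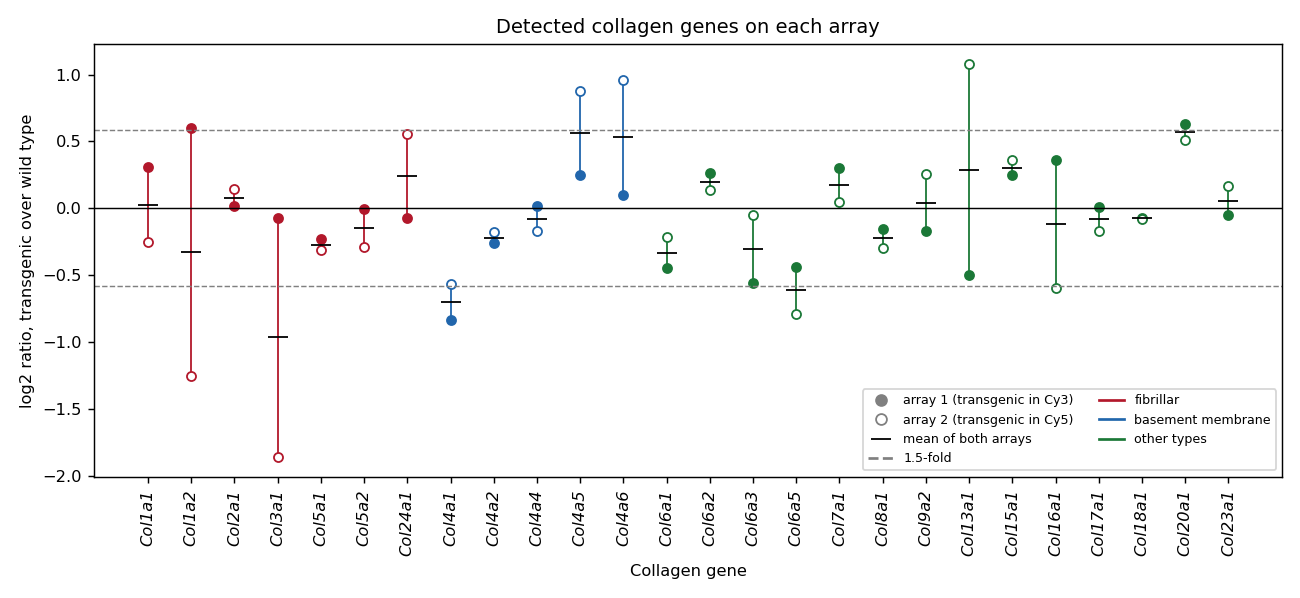
Log2 ratio of transgenic over wild type (vertical axis) for each of the 26 detected collagen genes (horizontal axis), with array 1 as filled and array 2 as open circles, the mean as a black bar, the class as the colour and 1.5-fold as dashed lines. No gene has both circles beyond the same dashed line. Col4a1 (−0.83 and −0.56) and Col20a1 (0.63 and 0.51) come nearest, whereas the circles of Col1a2 lie on opposite sides of 0.

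The weakest channel limits these values. Cy5 of array 2, which read the transgenic pool, was well above background at 21.1% of spots, against 42.1% to 58.3% in the other dye and array combinations. On both arrays the wild-type signal of all 26 detected collagen genes was well above background, as was the transgenic signal on array 1, but only 11 of them had such a transgenic signal on array 2. For the other 15 the ratio on array 2 compares a measured wild-type signal with a transgenic signal not well above background, so that by these probes only the wild-type RNA passed the detection filter (a second probe of Col4a1 passed in both pools). Ratios of dim probes are also drawn towards 0 by the offset of 50 added to every signal. Signals below are normalized intensities in array units, and signals of different probes are not compared because probes differ in efficiency. Where the pools are said not to overlap, both signals of 1 pool lie on the same side of both signals of the other. How many of all detected genes do so was not counted. Col18a1, at a mean of −0.08, does so too (444 and 449 against 421 and 425). So do Col3a1, Col4a6, Col5a1, Col5a2, Col6a3, Col7a1 and Col8a1, for which it is not pointed out below. Pools that do not overlap are thus common among these genes and do not mark out the ones named for it.

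Among the fibrillar collagens, the genes of types I and III had array ratios far apart or of opposite sign. Col1a1, which encodes the major chain of type I collagen, had wild-type signals of 200 and 209 on arrays 1 and 2 and transgenic signals of 247 and 176. The transgenic pool was thus the brighter one in Cy3 and the dimmer one in Cy5, with log2 ratios of 0.31 and −0.25 and a mean of 0.03 ± 0.39. The probe was printed 10 times per array, with a spot-to-spot SD of 0.19 and 0.30, and for the transgenic RNA on array 2 the flag for a signal well above background was set at 6 of its 10 spots. Both further Col1a1 probes, not detected, had the same pattern (0.63 and −0.71, and 0.32 and −0.43).

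Col1a2, the partner chain of type I collagen, had wild-type signals of 571 and 863 and transgenic signals of 865 and 361. Its log2 ratios of 0.60 and −1.26 (mean −0.33 ± 1.31) make it the 1 collagen gene whose Cy3 signal was brighter by at least 1.5-fold on each array, as was the case for 2.70% of all detected genes. In the ratios that the scanner software computes with another dye normalization, Col1a2 was below 0 on both arrays, at −0.02 and −0.30. For both type I genes, the signals of the pools overlapped as processed here.

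Col3a1, whose product forms type III fibres together with type I collagen in distensible tissue, had wild-type signals of 490 and 473 and transgenic signals of 467 and 130. The pools were close on array 1 (−0.07) and far apart on array 2 (−1.86), where the transgenic signal was not well above background. Its mean of −0.97 ± 1.26 was the lowest of all 26 genes and came almost wholly from array 2. It was below 0 on both arrays in all 8 settings compared, of which those of probe choice repeated the same probe. A dimmer Col3a1 probe, not detected, was at 0.22 and −0.17.

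The minor fibrillar collagens showed small ratios. Col5a2, a type V chain that takes part in starting type I fibrils, was at −0.15 ± 0.20. Its partner Col5a1 was at −0.27 ± 0.06, with wild-type signals of 109 on each array and transgenic signals of 92.6 and 87.5. A second Col5a1 probe of nearly the same brightness, not detected, pointed the other way (0.45 and 0.66), so the direction of Col5a1 depends on the probe. Col2a1, the main fibrillar collagen of cartilage, was at 0.08 ± 0.09, and its second probe, printed 10 times, at 0.01 ± 0.17. Col24a1 was at 0.24 ± 0.45, with a transgenic signal above wild type on array 2 alone, where it was not well above background. Of the fibrillar genes, Col5a3, Col11a1, Col11a2 and Col27a1 were not detected.

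**Figure D2:**
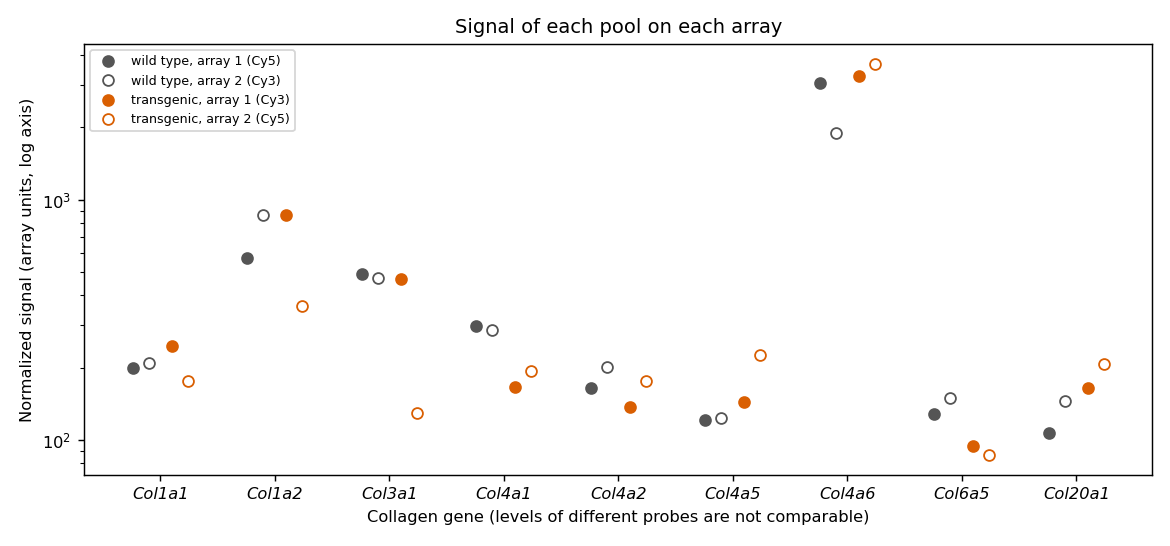
Normalized signal in array units (vertical log axis) of the wild-type pool (grey) and the transgenic pool (orange) on array 1 (filled) and array 2 (open) for 9 collagen genes. The transgenic signals of Col4a1 (166 and 194) lie below both wild-type signals (297 and 286), while those of Col1a2 (865 and 361) fall on either side of wild type (571 and 863).

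No basement membrane collagen passed the size rule, and their mean log2 ratios ran from −0.70 (Col4a1) to 0.57 (Col4a5). Type IV chains are encoded by genes that lie head to head in pairs on a shared promoter region, Col4a1 with Col4a2, Col4a3 with Col4a4 and Col4a5 with Col4a6. Col4a1 and Col4a2 encode the chains found in nearly all basement membranes. Col4a5 and Col4a6 form a network found in fewer membranes, among them those around smooth muscle. Both detected genes of the first pair were below 0 on each array and both genes of the X-linked pair were above 0 on each array, by the probe chosen for each gene. Further probes of Col4a2 and Col4a6 did not keep one sign on both arrays.

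RefSeq promoter windows (GRCm38.p6, 250 bases before the annotated start and 50 from it) are shown for these pairs because the chosen probes of each pair had the same sign. The array annotation cites another build, so probe positions are not given. The windows of Col4a1 (chr8:11312777-11313076, minus strand) and Col4a2 (chr8:11312555-11312854, plus strand) share 78 bases, which are in capitals and read as reverse complements.
Col4a1: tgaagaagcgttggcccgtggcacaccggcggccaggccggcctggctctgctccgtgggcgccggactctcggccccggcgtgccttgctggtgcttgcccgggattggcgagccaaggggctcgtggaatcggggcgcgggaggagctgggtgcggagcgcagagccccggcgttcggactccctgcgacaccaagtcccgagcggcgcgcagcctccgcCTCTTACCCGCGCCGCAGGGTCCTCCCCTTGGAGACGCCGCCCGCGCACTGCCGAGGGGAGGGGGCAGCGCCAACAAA
Col4a2: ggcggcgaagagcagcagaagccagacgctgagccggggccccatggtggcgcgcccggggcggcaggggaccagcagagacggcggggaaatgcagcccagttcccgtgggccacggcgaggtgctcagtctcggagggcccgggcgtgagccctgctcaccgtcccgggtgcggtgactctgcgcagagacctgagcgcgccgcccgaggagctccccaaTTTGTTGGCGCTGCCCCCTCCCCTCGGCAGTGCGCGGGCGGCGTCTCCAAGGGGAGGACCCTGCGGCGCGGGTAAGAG
Windows of Col4a6 (chrX:141474027-141474326, minus strand) and Col4a5 (chrX:141475169-141475468, plus strand) do not overlap and are 842 bases apart. Capitals mark CCAAT or GGGCGG on either strand.
Col4a6: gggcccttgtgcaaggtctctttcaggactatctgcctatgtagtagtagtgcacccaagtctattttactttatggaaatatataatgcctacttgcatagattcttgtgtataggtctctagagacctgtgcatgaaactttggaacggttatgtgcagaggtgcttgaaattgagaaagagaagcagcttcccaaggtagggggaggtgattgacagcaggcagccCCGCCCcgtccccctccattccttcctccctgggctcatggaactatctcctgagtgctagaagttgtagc
Col4a5: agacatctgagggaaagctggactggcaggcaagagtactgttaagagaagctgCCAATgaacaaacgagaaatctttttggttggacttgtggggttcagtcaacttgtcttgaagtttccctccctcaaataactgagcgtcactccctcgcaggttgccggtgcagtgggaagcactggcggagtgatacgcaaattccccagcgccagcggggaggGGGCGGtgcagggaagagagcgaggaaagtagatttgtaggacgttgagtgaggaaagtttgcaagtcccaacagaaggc
Searched on both strands, with overlaps between motifs allowed, GGGCGG was found in 23 of 38 windows of 35 collagen genes (60.5%) and in 35.6% of all 32817 windows, CCAAT in 34.2% and 37.4%, and TATAAA in 13.2% and 13.6%. All 4 windows shown hold GGGCGG, and none holds TATAAA. These matches describe letters only and were not tied to any ratio.

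Col4a1 had wild-type signals of 297 and 286 and transgenic signals of 166 and 194. Both transgenic signals were below both wild-type signals, and the mean log2 ratio was −0.70 ± 0.19, or 1.62-fold lower. The transgenic signal was well above background on array 1 only. A second detected probe, well above background in both pools on both arrays, was at −0.63 and −0.08, so that its sign matched on each array while its size on array 2 was small. Col4a2 had wild-type signals of 165 and 201 and transgenic signals of 138 and 177, which overlap across arrays, and log2 ratios of −0.26 and −0.18 (mean −0.22 ± 0.06). Its second detected probe was at −0.31 and 0.18.

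Col4a5, mutated in X-linked Alport syndrome, had wild-type signals of 121 and 124 and transgenic signals of 144 and 227. Both transgenic signals exceeded both wild-type signals, by little on array 1 (0.25) and by more on array 2 (0.88), with a mean of 0.57 ± 0.44. Col4a6 had wild-type signals of 3045 and 1886 and transgenic signals of 3259 and 3676. The ratio was 0.10 on array 1 and 0.96 on array 2, with a mean of 0.53 ± 0.61, smaller than its SD. Its 2 other detected probes were at −0.02 and 0.60, and at 0.07 and −0.13, so 1 of the 3 probes was above 0 on both arrays. Col4a4, a chain known from the kidney glomerulus, was at −0.08 ± 0.13, and its pair partner Col4a3 was not detected.

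**Figure D3:**
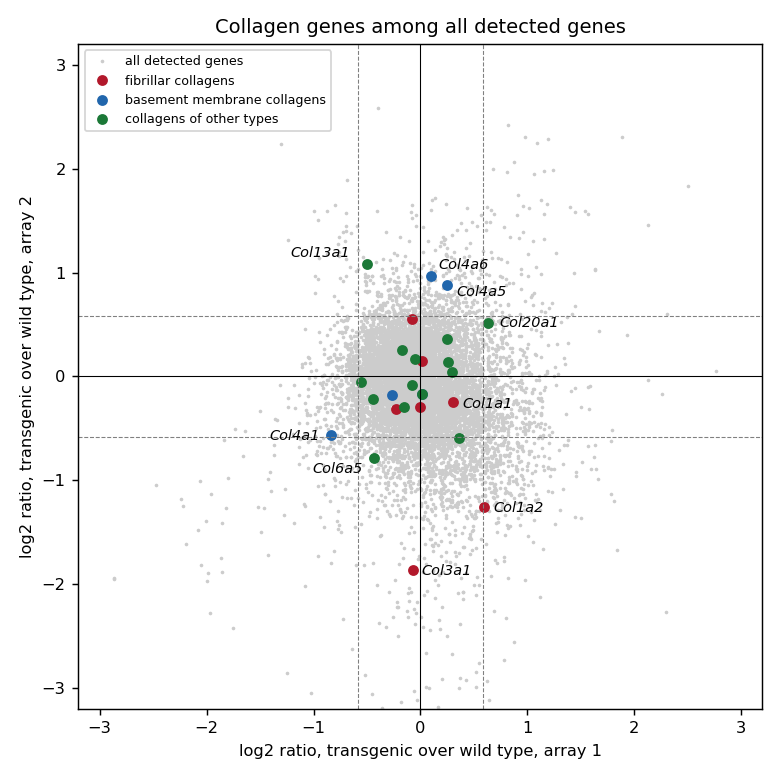
Log2 ratio of transgenic over wild type on array 1 (horizontal axis) against array 2 (vertical axis) for all detected genes (grey; 12 genes lie outside the axes) and the collagen genes by class (coloured), with 1.5-fold as dashed lines. A gene past the size rule lies in the lower left or upper right corner field, and no collagen gene lies there. Col1a2 lies in the lower right field, where Cy3 is brighter on each array, and Col4a1 (−0.83 and −0.56) lies at the edge of the lower left field.

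Among the type VI collagens, which form beaded filaments close to cells, 3 of 4 detected genes were below 0 on each array, as were 28.0% of all detected genes. Col6a1 had wild-type signals of 150 and 174 and transgenic signals of 110 and 150, a mean of −0.33 ± 0.16. Col6a3, which joins Col6a1 and Col6a2 chains in 1 monomer, had wild-type signals of 282 and 217 and transgenic signals of 191 and 210, a mean of −0.30 ± 0.36 that was −0.05 on array 2. Col6a2 ran the other way at 0.20 ± 0.09, so the 3 chains of the monomer did not share a sign by the chosen probes as processed here. The transgenic signals of Col6a1 and Col6a2 were well above background on array 1 only. Col6a2 was above 0 on both arrays in 5 of 8 settings compared. Its mean was −0.12 with median centring in place of loess and −0.23 with the scanner software's log ratio. Further Col6a3 probes, not detected, were above 0 on each array (0.42 and 0.10, and 0.03 and 0.13). Col6a5 had wild-type signals of 128 and 150 and transgenic signals of 94.3 and 86.6, which do not overlap, with ratios of −0.44 and −0.79 (mean −0.61 ± 0.25, or 1.53-fold lower). Its transgenic signal was well above background on array 1 only. Col6a4 and Col6a6 were not detected.

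Of the fibril-associated collagens with interrupted helices, 3 were detected. Col20a1 had wild-type signals of 107 and 146 and transgenic signals of 165 and 208, both above the wild-type signals, with ratios of 0.63 and 0.51 (mean 0.57 ± 0.08, or 1.49-fold higher). It had 1 probe, and its transgenic signal was well above background on array 1 only. Col16a1 was brighter in Cy3 on each array (0.36 and −0.60, mean −0.12 ± 0.68), and Col9a2 was at 0.04 ± 0.30. Col9a1, Col9a3, Col14a1, Col19a1 and Col22a1 were not detected.

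The epithelium-anchoring collagens were close to equal in the pools. Col7a1, the anchoring fibril collagen, had wild-type signals of 756 and 808 and transgenic signals of 930 and 833, a mean of 0.17 ± 0.18. Col17a1, a transmembrane collagen of hemidesmosomes, was at −0.08 ± 0.13. Of the other transmembrane types, Col23a1 was at 0.06 ± 0.15 and of opposite sign on the arrays, while a brighter probe, not detected, was at 0.22 and 0.21. Col13a1, found at muscle and nerve contacts, was brighter in Cy5 on each array (−0.50 and 1.08, mean 0.29 ± 1.12).

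The multiplexins of basement membrane zones differed little. Col18a1, the source of endostatin, had wild-type signals of 444 and 449 and transgenic signals of 421 and 425, the smallest spread between arrays of all 26 genes (mean −0.08 ± 0.0029). Both pools were well above background on both arrays for this probe, and its second detected probe was at 0.16 and −0.45. Col15a1 was at 0.30 ± 0.08, and the network-forming Col8a1, a product of vessel walls, at −0.23 ± 0.10. Both transgenic signals of Col15a1 (112 and 124) were above both wild-type signals (94.2 and 96.8), all of them dim. The transgenic signal was well above background on array 1 only. A second Col15a1 probe, not detected, was at −0.05 and 0.19. Col8a2, Col10a1, Col25a1, Col26a1 and Col28a1 were not detected.

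Genes that make, bind and remove collagen gave 1 call among 8 lists, by a rule that called 2.21% of all detected genes in either direction. Of 16 detected hydroxylases, chaperones and export factors of procollagen, none passed the rule (median −0.28). Sec24d and Sec23a, coat proteins that carry procollagen out of the endoplasmic reticulum, were at −0.59 ± 0.26 and −0.52 ± 0.22, Mia3, the cargo receptor for procollagen, at −0.48 ± 0.86, and P3h4 at −0.47 ± 0.34. None of 5 procollagen proteinases and enhancers and neither of 2 crosslinking enzymes passed (medians −0.04 and −0.28). The enhancer Pcolce was at 0.46 ± 0.78, the proteinase Adamts2 at −0.24 ± 0.03 and the crosslinking transglutaminase Tgm2 at −0.36 ± 0.34.

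Of 12 fibril-binding proteoglycans and matrix proteins, none passed (median −0.41, 7 of 12 below 0 on both arrays, against 28.0% of all detected genes). Of those 7, Lum, Tnxb, Postn, Dpt and Fmod passed the detection filter through the wild-type pool only, and Ogn and Sparc in both pools. The count is thus not independent of the filter. Ogn and Lum, leucine-rich proteoglycans that bind fibrils, were at −0.68 ± 0.14 and −0.69 ± 0.55, Tnxb at −0.56 ± 0.65, and Bgn, another such proteoglycan, at 0.71 ± 1.05. Of 10 basement membrane partners, 1 was lower: Nid1, which links laminin to type IV collagen, with wild-type signals of 332 and 252 and transgenic signals of 219 and 166 (−0.60 on each array, 1.52-fold lower, with the transgenic signal well above background on array 1 only). Agrn was at −1.35 ± 1.62, from −0.21 on array 1 and −2.50 on array 2, and Lamb2 at 0.41 ± 0.26.

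None of 6 detected degradation genes passed the rule (median −0.25). Timp2, an inhibitor of matrix metalloproteinases, was at 0.30 on array 1 and −3.56 on array 2, Timp4 at −0.56 ± 1.34 and the metalloproteinase Mmp15 at −0.31 ± 0.55, while 10 further members of the list, Mmp2 and Mmp9 among them, were not detected. None of 4 collagen receptors passed (median 0.12): the integrin Itga1 was brighter in Cy5 on each array (mean 0.30 ± 1.83), Ddr2, a receptor kinase that fibrillar collagen activates, was at −0.29 ± 0.15, and Itgb1 at 0.04 ± 0.07. None of 9 TGF-beta pathway genes passed (median −0.31), with Tgfbi at −0.54 ± 0.54 and Smad7 at −0.44 ± 0.08.

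By the size rule 1.30% of all detected genes were lower. Prostate secretory genes (Pbsn, Sbp, Spink1, Msmb and Tgm4) were all detected, and Sbp, Spink1 and Msmb were lower. Tgm4 was above 0 on both arrays (0.25 and 1.16) and Pbsn on array 2 alone (−0.32 and 1.39), so this list did not share a direction. Stromal markers were present, with 10 of 12 fibroblast and 8 of 8 smooth muscle markers detected, and no gene of either list passed the rule (medians −0.11 and 0.04). Of the 10 fibroblast markers, 5 were below 0 on both arrays and 2 above, where 28.0% and 17.5% of all detected genes were. The largest were Lum (−0.69 ± 0.55), Dpt (−0.43 ± 0.25) and Vim (−0.42 ± 0.19). Lum and Dpt passed the detection filter through the wild-type pool only. Dcn, a fibroblast product that binds collagen fibrils, had the brighter signal in Cy3 on each array, as Col1a2 did (1.15 and −1.66). None of 7 endothelial, 5 basal or 5 luminal epithelial markers passed. Adipocyte markers were lower for 6 of 7 detected genes, with summed signals of 7556 and 8723 in wild type and 2282 and 1691 in the transgenic pool, and Lep not detected. Macrophage markers were lower for 2 of 7 (C1qc and Mrc1), with all 7 below 0 on both arrays and summed signals of 1454 and 1689 against 914 and 1095. The macrophage markers C1qa, C1qb, Mrc1, Adgre1 and Cd163 passed the detection filter through the wild-type pool only. So did the adipocyte markers Cfd, Car3, Adipoq, Retn and Plin1. The direction of these markers is thus not independent of the filter. Beside these, 10 of 26 collagen genes were below 0 on both arrays (28.0% of all detected genes), and the part of adipocyte and macrophage RNA in their values was not tested. Of 5 Schwann cell and 5 chondrocyte markers, 3 in each list were not detected (Acan and Comp among them), and of 4 detected skeletal muscle markers none passed.

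Processing changed which collagens came near the rule. Col3a1, Col4a1, Col6a3 and Col6a5 were below 0 on both arrays in all the settings of processing and probe choice set side by side here (9 for Col6a3 and 8 for each of the others, the reported one included), and Col4a5 was above 0 on both in all 9 of its settings. For all of these but Col4a1, the settings of probe choice repeated the reported ratios, since only 1 probe was detected. Median centring moved the median of all detected genes on array 2 to −1.09. The settings are thus not independent checks. Col4a1 passed the rule as lower in 3 of its 8 settings, with means from −1.26 to −0.53, and was at −0.35 by its brightest probe detected in both pools. Col6a5 passed in 2 of 8 (−1.02 to −0.28), Col6a1 in 1 of 8 and Col20a1, as higher, in 1 of 8 (0.16 to 0.76). Col4a6 turned to −0.43 with median centring, which removes no intensity trend, and Col4a5 reached 1.93 with the scanner software's log ratio, from 0.09 on array 1 and 3.78 on array 2.

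**Figure D4:**
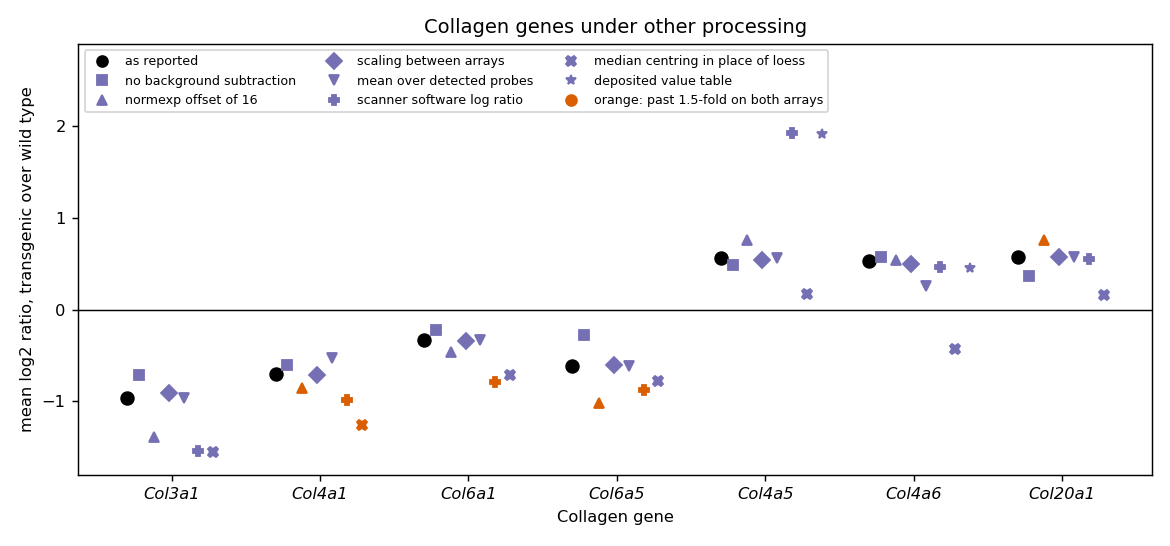
Mean log2 ratio of transgenic over wild type (vertical axis) for 7 collagen genes as reported (black) and under 7 other ways of processing (other marks; orange where the gene was at least 1.5-fold changed in 1 direction on both arrays). Col4a1 stays below 0 throughout, from −1.26 to −0.53, and Col4a5 above 0, whereas Col4a6 changes sign with median centring (−0.43). The deposited table holds Col4a5 and Col4a6 only among these genes.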

How the data were processed

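RNA extracted with Trizol was labelled with an Agilent low-input kit, per the labels' protocols. Scans of the 2-colour arrays were read by Feature Extraction 11.0.1.1. In its output the deposited spot and background intensities are medians of pixels, neither subtracted nor dye-normalized, per the file headers. The deposited log10 ratio is Cy5 over Cy3 of the scanner software's processed intensities, which are background-subtracted and dye-normalized, per the file headers. Beside these files, a series value table that the authors deposited gives log2 ratios for 8533 rows. Set against the scanner values, its columns are transgenic over wild type (r of 1.0000) with a median of 0.0000, and it was used as an alternative. How its rows were chosen is not given here.

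Processing used limma 3.58.1 (R 4.3.3): normexp background correction of the median spot signals (mean signals had been planned) with an offset of 50, loess within arrays with control and outlier spots at weight 0, and the mean over spots of a probe. Pool signals are shown after Aquantile scaling between arrays. Direction comes from the dyes in the labels. Outlier spots (157 and 177 on arrays 1 and 2) were left out, and no spot was saturated. Probes printed 10 times (245 probes) varied by 0.17 and 0.23 (median log2 SD over spots) on arrays 1 and 2. The number of arrays limits the precision. Accessions without versions were matched to a RefSeq table of GRCm38.p6 (27816 of 41174 probes). A probe counted as detected when at least as many of its spots were flagged as not. No p-value was computed. Genes named were all detected collagens and, of each partner or marker list, those past the size rule and up to 4 with the largest mean ratio, together with a few named for their role after their values were seen. The members and lists were chosen with earlier results of these data known. The gene choice and the size rule were tested on simulated data. Tables and figures were made with pandas 2.3.3, numpy 2.4.6 and matplotlib 3.10.9 in Python 3.11.15.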

Additional observations from a re-analysis of the deposited data

How the results depend on the processing

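No collagen gene passed the size rule without background subtraction, with scaling between arrays, in the deposited table, with detection in both pools (by either rule), with no detection filter, with the mean over detected probes or with the brightest probe before the detection filter, the last chosen after seeing the data. The deposited table and detection in both pools left 11 collagen genes, or 12 with the brightest probe detected in both pools. Col6a1, Col6a5 and Col20a1 were not among them and so could not pass there. Col4a1 was not among the 11 either, and could not pass there, but was among the 12, at −0.35. With an offset of 16, 1 was higher (Col20a1) and 2 lower (Col4a1 and Col6a5). With the scanner software's log ratio 3 were lower (Col4a1, Col6a1 and Col6a5), and with median centring 1 was lower (Col4a1). With either array left out, 2 to 3 were higher and 1 to 4 lower, since 1 array then decides. Median centring moved the median of all detected genes to −0.57 (−0.11 with the scanner software's ratio), and over all genes it gave 2 higher and 554 lower, against 95 and 136 as reported. Counts from the scanner software's ratio were 247 and 627, and the deposited table gave 173 and 117, an offset of 16 gave 149 and 240, and detection in both pools 92 and 76. The collagen median of −0.08 became −0.41 with median centring, −0.19 with the scanner software's log ratio and 0.022 with no detection filter, where the fibrillar median became 0.08. The basement membrane median became −0.68 with median centring, 0.21 in the deposited table and 0.23 with detection in both pools, the last 2 without Col4a1, whose chosen probe fell out. When each gene took its brightest probe detected in both pools, a setting chosen after seeing the data, Col4a1 stayed and this median was −0.077. The fibrillar median was 0.028 with the brightest probe before the detection filter and ranged from −0.290 to −0.002 with either array left out, and the basement membrane median from −0.170 to 0.017. The median of other types became −0.30 with median centring, −0.24 with the scanner software's log ratio and −0.076 with detection in both pools (by either rule), and ranged from −0.063 to −0.003 with either array left out. Causes were not tested. No paired analysis was possible because both arrays repeat the same pools and no test was made. The weak Cy5 signal of array 2 limits the 15 genes whose transgenic signal there was not well above background.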
